A study of Mus musculus with 12 samples.

Results

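The genes described here are 10 parts of the WNT pathway: Lgr4, Lgr5, Lgr6, Lrp5, Lrp6, Znrf3, Rnf43, Axin2, Tcf7l2 and Lef1. They act at the receptor or in its feedback, except Tcf7l2 and Lef1, which encode DNA-binding proteins of the nucleus. They were found by symbol in a table of 25861 genes, and all 10 had enough reads to be among the 17025 genes tested. The set was chosen by the counts of Lgr5 in these same libraries, which were higher after knockdown, so Lgr5 against the control is given as a description with no test. RNA was sequenced from organoids of fresh MMTV-Neu tumours, a mouse model whose oncogene, Neu (Erbb2), is under a promoter from mouse mammary tumour virus that is active in mammary epithelium. Organoids carried the lentiviral hairpin sh1Cldn7 (hairpin 1), the hairpin sh2Cldn7 (hairpin 2) or a non-targeting hairpin, shControl (control), with 4 libraries per group numbered 1 to 4. All groups come from these tumours and so share the Neu transgene, although the genotype tag of the controls reads WT; all were infected at a multiplicity of 20, selected in puromycin at 3 µg/ml for 3 days, and kept with 2.5 nM FGF2 in collagen I for 5 days. Cldn7 encodes claudin 7, a membrane protein of tight junctions, and the study asked about its role in invasion. The age of the mice, and whether the 4 libraries of a group came from separate tumours or cultures, are not given, so the p-values speak of the scatter among these libraries, which may be technical.

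WNT proteins bind a Frizzled receptor together with the co-receptor LRP5 or LRP6, which stops the destruction of beta-catenin and lets it enter the nucleus with TCF and LEF proteins. The ubiquitin ligases ZNRF3 and RNF43 take Frizzled off the cell surface, and R-spondins bound to LGR4, LGR5 or LGR6 take these ligases away in turn. AXIN2, ZNRF3, RNF43 and LGR5 are made in response to beta-catenin in many tissues, which makes them common readouts of the pathway. In the mouse mammary gland LGR5 is known from a subset of basal cells and LGR6 from rare progenitors, and LEF1 from the early mammary bud.

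Total counts were 34988358 to 44645514 in replicates 1 and 2 and 68581024 to 76329473 in replicates 3 and 4 of every group. Cldn7 was at 33.6 ± 7.15 CPM with hairpin 1, 28.4 ± 4.29 with hairpin 2 and 142 ± 34.6 in the control (SD, n = 4 each; CPM are counts scaled to library size), so the target was lower where the labels say so. Libraries with the same replicate number resembled each other across groups, and all differences below come from a model that holds both the group and the replicate number. With that model 1.79% of all genes were called over both hairpins, 0.728% with hairpin 1, 5.76% with hairpin 2 and 3.44% between the hairpins; without the replicate number 1 gene passed, Cldn7, or 0.00587% in each comparison against the control. The same share passed between the hairpins without the replicate number.

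Among the other 9 genes, Lef1 was the one that changed against the control: it fell to 66.3% of the control level with hairpin 2, and the remaining receptors, ligases and feedback genes did not pass the test with either hairpin. Lgr5, the gene behind the choice, averaged 18.9 CPM with hairpin 1, 30.1 CPM with hairpin 2 and 9.51 CPM in the control. Its paralogs Lgr4 and Lgr6 and the feedback genes Axin2, Znrf3 and Rnf43 did not pass in any hairpin contrast. Counted over the 9, 0 were called over both hairpins, 0 with hairpin 1 and 1 with hairpin 2, beside 1.79%, 0.728% and 5.76% of all genes. In the same order 1, 1 and 2 had an unadjusted edgeR p under 0.05, as did 2925, 2176 and 3841 of the 17025 genes tested. Without the replicate number edgeR called 0 of the 9 and had 0 under that value. A count of 1 in 9 beside a background of 5.76% says nothing about the genes as a group. Their median log2 fold change was 0.02 over both hairpins, -0.05 with hairpin 1 and 0.11 with hairpin 2, against -0.002, -0.002 and 0.004 for all genes tested.

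**Figure D1:**
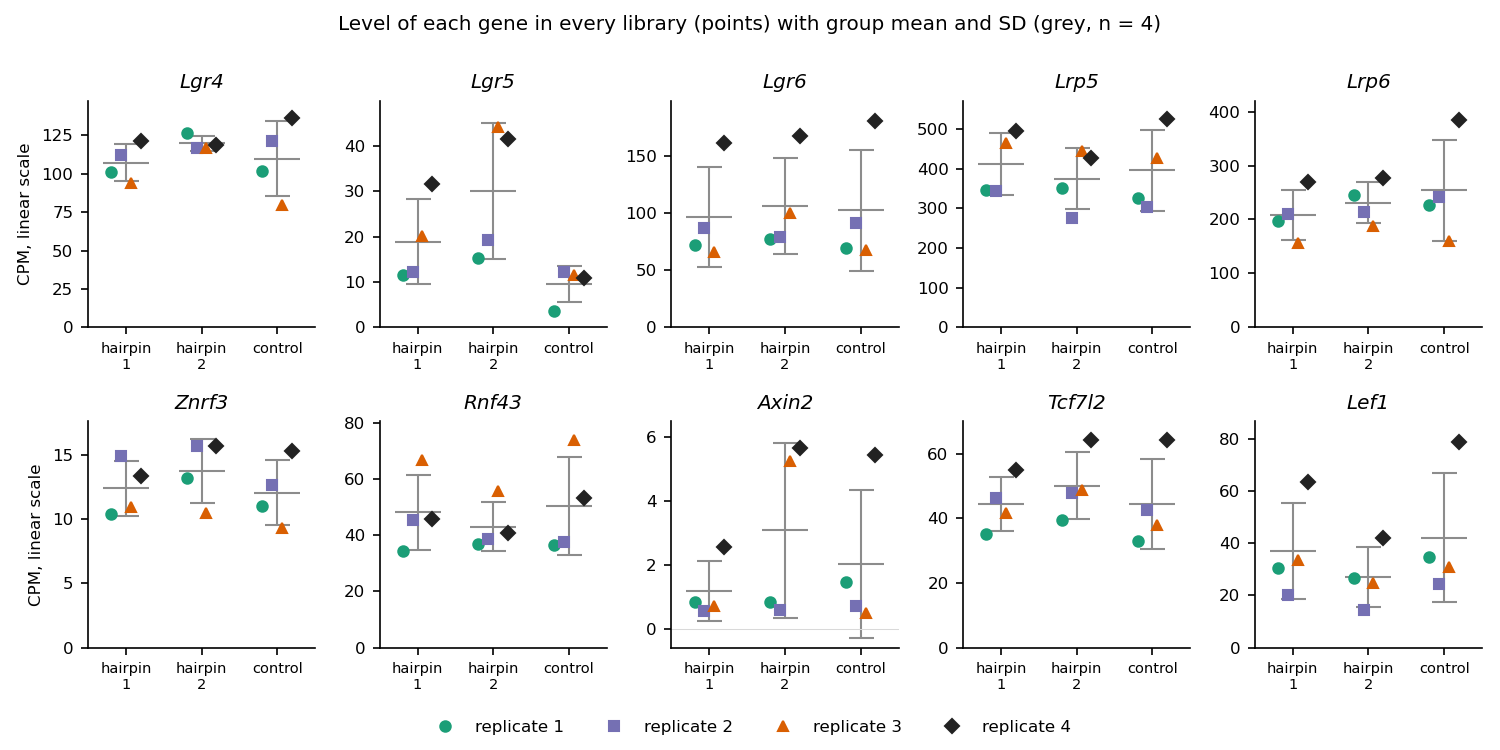
CPM (vertical axis, linear from 0) of each gene in all 12 libraries, with hairpin 1, hairpin 2 and control from left to right, replicate numbers by colour and shape, and the group mean and SD in grey. Lgr5 in the hairpin 2 libraries (15.2 to 44.3 CPM) lies above all control libraries (3.63 to 12.1 CPM), and replicate 4 is the highest library of Lgr6 and Lef1 in every group.

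Lgr5 (NCBI Gene 14160; chromosome 10, 115450311 to 115587780, GRCm38, minus strand) encodes a receptor for R-spondins. It stood at 11.6, 12.3, 20.1 and 31.7 CPM in replicates 1 to 4 of hairpin 1. With hairpin 2 it stood at 15.2, 19.2, 44.3 and 41.6 CPM, against 3.63, 12.1, 11.4 and 10.8 CPM in the control. All hairpin 2 libraries were above all controls, while the lowest hairpin 1 library lay within the control range. These are the values that chose the gene, so nothing is read from their separation; the share of all genes whose hairpin 2 and control libraries do not overlap, in either direction, was 2.10%. Its log2 fold change was 1.30 over both hairpins, 0.98 with hairpin 1 and 1.62 with hairpin 2. Between libraries of the same number the log2 difference was 1.67, 0.02, 0.81 and 1.54 for hairpin 1 minus control and 2.06, 0.66, 1.95 and 1.94 for hairpin 2 minus control. Replicate 2 gave the smallest difference with both hairpins. In bulk RNA, more or fewer cells of a type and more or less RNA per cell cannot be told apart, here and below. Since LGR5 is known from basal cells, the summed level of 13 basal markers is set beside it: 3014, 4269, 1845 and 2427 CPM with hairpin 1, 3365, 4379, 3522 and 3266 CPM with hairpin 2, and 2539, 4497, 1567 and 1921 CPM in the control. Their part in the Lgr5 level was not tested. Within replicates 1 and 2 alone the fold change was 0.75 with hairpin 1 and 1.25 with hairpin 2, and within replicates 3 and 4 alone 1.22 and 1.97.

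Hairpin 2 against hairpin 1 is not the comparison behind the choice, but its libraries are among those that chose Lgr5. Its test is therefore not independent of the choice. Hairpin 2 was above hairpin 1 in 4 of 4 pairs. The Lgr5 log2 difference of 0.64 (SE 0.24, 95% interval 0.10 to 1.17) did not pass (edgeR adjusted p = 0.178). Without control replicate 2 it passed (edgeR adjusted p = 0.0382); without each of the other libraries it did not, with values up to 0.437. The counts behind these levels were 126 in control replicate 1 and 391 to 3472 in the other libraries.

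The genes whose 8 differences from the control of the same number came closest to those of Lgr5 were Trp73, Irx4, Cntn2, Cntfr and Brinp1, out of 14129 genes with a mean of at least 1 CPM. Their root mean square distance from Lgr5 was 0.258, 0.330, 0.358, 0.360 and 0.398 on the log2 scale, where the median gene was at 1.52. The 8 Lgr5 differences averaged 1.33, so a gene that did not change lies far from Lgr5. These differences share 4 control libraries and are the values that chose the set, so the ranking is a description with no test. Trp73, a transcription factor of the p53 family, averaged 3.40 CPM with hairpin 1, 5.02 CPM with hairpin 2 and 2.11 CPM in the control. Irx4, a homeobox gene, averaged 6.18, 7.62 and 3.02 CPM in hairpin 1, hairpin 2 and control libraries. Cntn2, an immunoglobulin-family adhesion protein, averaged 27.5 CPM with hairpin 1, 28.1 CPM with hairpin 2 and 16.6 CPM in the control. Its 8 paired log2 differences averaged 1.32, which these group means do not show. Cntfr, a receptor for ciliary neurotrophic factor, was at 10.3, 10.9 and 5.04 CPM, and Brinp1 at 12.2, 15.5 and 5.03 CPM, in hairpin 1, hairpin 2 and control.

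The paralogs of Lgr5 were compared next. Lgr4 (NCBI Gene 107515; chromosome 2, 109917647 to 110014257, plus strand), the broadly expressed receptor of the family, was at 101, 112, 93.9 and 121 CPM with hairpin 1. With hairpin 2 it was at 127, 117, 117 and 119 CPM, against 102, 121, 80.0 and 136 CPM in the control. The groups overlapped, and the log2 fold change was -0.02 (SE 0.10, 95% interval -0.25 to 0.20; edgeR adjusted p = 0.961) with hairpin 1 and 0.15 (SE 0.10, 95% interval -0.08 to 0.38; edgeR adjusted p = 0.420) with hairpin 2. Lgr6 (NCBI Gene 329252; chromosome 1, 134983301 to 135105276, minus strand) was at 71.7, 86.8, 66.3 and 161 CPM with hairpin 1. Hairpin 2 libraries had 77.8, 78.9, 100.1 and 168 CPM, against 69.6, 91.3, 68.1 and 181 CPM in the control. Replicate 4 was the highest in all 3 groups, and the groups overlapped: the log2 fold change was -0.06 (SE 0.11, 95% interval -0.31 to 0.19; edgeR adjusted p = 0.879) with hairpin 1 and 0.11 (SE 0.11, 95% interval -0.14 to 0.36; edgeR adjusted p = 0.620) with hairpin 2.

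The co-receptors that sit beside Frizzled did not pass in any contrast. Lrp5 (NCBI Gene 16973; chromosome 19, 3584828 to 3686564, minus strand) was at 343 to 494 CPM with hairpin 1, 276 to 446 CPM with hairpin 2 and 304 to 527 CPM in the control. Its log2 fold change was 0.07 (SE 0.07; edgeR adjusted p = 0.747) with hairpin 1 and -0.07 (SE 0.07; edgeR adjusted p = 0.638) with hairpin 2. Lrp6 (NCBI Gene 16974; chromosome 6, 134446476 to 134566965, minus strand), which shares the co-receptor role, was at 197, 211, 157 and 269 CPM with hairpin 1, 245, 215, 189 and 277 CPM with hairpin 2, and 228, 242, 161 and 385 CPM in the control. The hairpin 1 library was the lower in 4 of 4 pairs, as for 12.6% of all genes, and the log2 fold change of -0.25 (SE 0.10, 95% interval -0.47 to -0.03) did not pass (edgeR adjusted p = 0.330). With hairpin 2 it was -0.08 (SE 0.10; edgeR adjusted p = 0.672) and turned to 0.03 without control replicate 4, the highest library of the gene.

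The ligases that oppose the receptors did not pass in any contrast. Znrf3 (NCBI Gene 407821; chromosome 11, 5276324 to 5444847, minus strand) was at 10.4, 14.9, 10.9 and 13.3 CPM with hairpin 1, 13.2, 15.7, 10.5 and 15.7 CPM with hairpin 2, and 11.0, 12.7, 9.34 and 15.3 CPM in the control. Hairpin 2 was above the control in 4 of 4 pairs, by 0.04 to 0.31 on the log2 scale, and the fold change of 0.19 (SE 0.10, 95% interval -0.03 to 0.41) did not pass (edgeR adjusted p = 0.291). Rnf43 (NCBI Gene 207742; chromosome 11, 87662722 to 87735539, plus strand) was at 34.5, 45.4, 66.7 and 45.9 CPM with hairpin 1, 37.0, 38.7, 55.8 and 40.7 CPM with hairpin 2, and 36.5, 37.7, 74.0 and 53.2 CPM in the control. Its log2 fold change was -0.05 (SE 0.09; edgeR adjusted p = 0.880) with hairpin 1 and -0.19 (SE 0.09, 95% interval -0.40 to 0.01; edgeR adjusted p = 0.251) with hairpin 2, where replicates 3 and 4 were lower by 0.41 and 0.39 and replicates 1 and 2 higher by 0.02 and 0.04.

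Axin2 (NCBI Gene 12006; chromosome 11, 108920349 to 108950783, plus strand), the scaffold that brakes beta-catenin and is the usual feedback readout, was the lowest of the set, with 20 to 420 counts per library. It stood at 0.832, 0.573, 0.728 and 2.56 CPM with hairpin 1 and at 0.844, 0.577, 5.23 and 5.64 CPM with hairpin 2. The control libraries had 1.47, 0.703, 0.507 and 5.41 CPM. Replicate 4 was high in all groups, and replicate 3 was high with hairpin 2 and low in the other groups. The log2 fold change was -0.62 (SE 0.59, 95% interval -1.93 to 0.68; edgeR adjusted p = 0.723) with hairpin 1, 0.68 (SE 0.59, 95% interval -0.63 to 1.98; edgeR adjusted p = 0.543) with hairpin 2, and 1.30 (SE 0.59; edgeR adjusted p = 0.253) for hairpin 2 against hairpin 1. With hairpin 2 the value rested on replicate 3, whose pair differed by 3.28 on the log2 scale, and it was -0.14 without that library. Axin2 shares 209 bases of exon with the opposite-strand gene Gm11670, and the strand setting of the counting is not given in the sources used here. No counted gene has the symbol Gm11670.

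**Figure D2:**
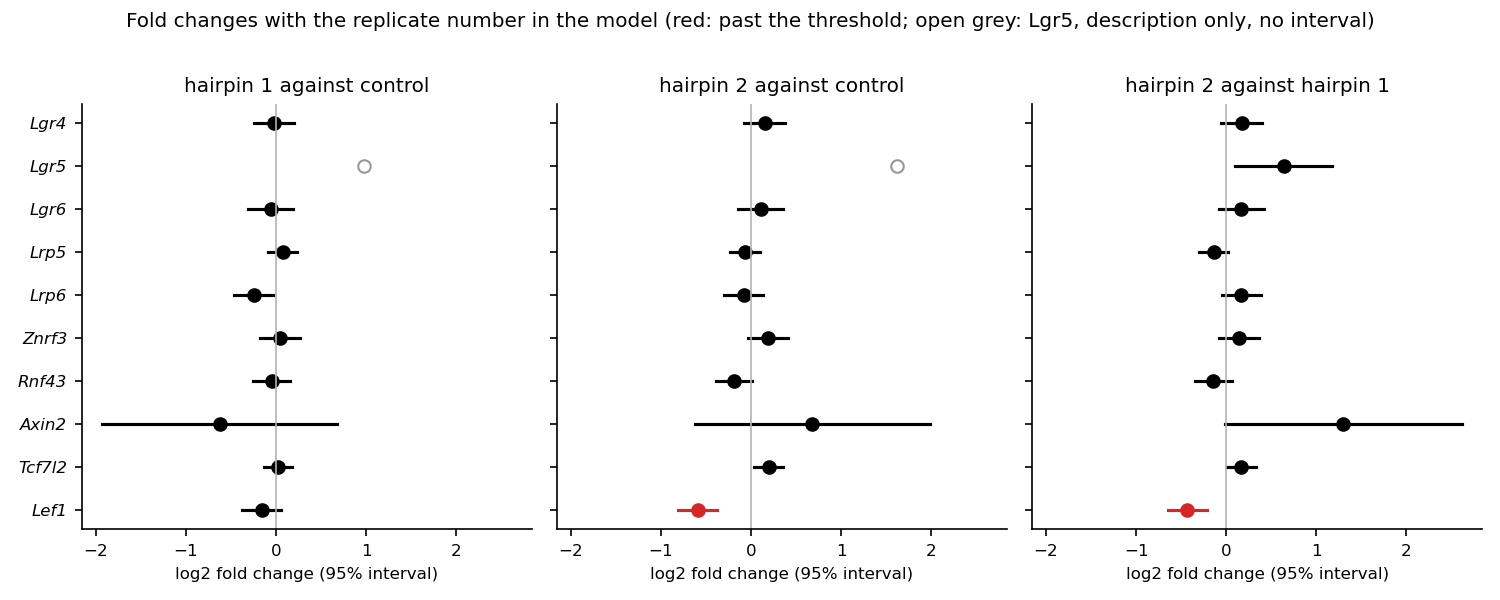
log2 fold change (horizontal axis) with its 95% interval for the 10 genes, for hairpin 1 against control, hairpin 2 against control and hairpin 2 against hairpin 1, from the model with the replicate number. Lef1 is past the threshold in the middle and right panels (-0.59 and -0.43), Axin2 has the widest intervals, and Lgr5 against the control is drawn open and without an interval because it chose the set.

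Tcf7l2 and Lef1 encode DNA-binding partners of beta-catenin. Tcf7l2 (NCBI Gene 21416; chromosome 19, 55741820 to 55933654, plus strand) was at 35.0, 46.1, 41.8 and 54.8 CPM with hairpin 1. With hairpin 2 it was at 39.4, 47.7, 48.7 and 64.3 CPM, against 32.9, 42.6, 37.9 and 64.3 CPM in the control. Hairpin 2 was at or above the control in each pair, by 0.26, 0.16, 0.36 and 0.001 on the log2 scale, yet the fold change of 0.19 (SE 0.07, 95% interval 0.04 to 0.35) did not pass (edgeR adjusted p = 0.137) and passed when control replicate 4 was left out (edgeR adjusted p = 0.0452). All 4 pairs were higher for 2 of the 9 genes, Znrf3 and Tcf7l2, as for 12.6% of all genes.

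Lef1 (NCBI Gene 16842; chromosome 3, 131110471 to 131224356, plus strand) was at 30.5, 20.3, 33.7 and 63.3 CPM with hairpin 1. With hairpin 2 it was at 26.6, 14.3, 24.7 and 42.0 CPM, against 34.8, 24.1, 30.7 and 78.5 CPM in the control. The groups overlapped, but each hairpin 2 library was below the control of its number, by 0.39, 0.75, 0.32 and 0.90 on the log2 scale. All 4 pairs were lower for 12.8% of all genes. The log2 fold change with hairpin 2 was -0.59 (SE 0.10, 95% interval -0.81 to -0.37), and Lef1 fell (edgeR adjusted p = 0.00980), as did 2.93% of all genes. With hairpin 1 it was -0.16 (SE 0.10, 95% interval -0.38 to 0.06) and did not pass (edgeR adjusted p = 0.551), with 3 of 4 pairs lower. Over both hairpins it was -0.38 (SE 0.08; edgeR adjusted p = 0.0558).

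The difference between the hairpins was itself past the threshold for Lef1. Hairpin 2 was below hairpin 1 by 0.19, 0.50, 0.45 and 0.59 in the 4 pairs, and the fold change was -0.43 (SE 0.10, 95% interval -0.65 to -0.22; edgeR adjusted p = 0.0419). Of the 10 genes, 1 was called lower here and 0 higher, where 3.44% of all genes were called and 1.87% were called lower. An unadjusted edgeR p under 0.05 was found for 3, Lef1, Lgr5 and Tcf7l2, as for 3414 of the 17025 genes tested. For Lgr5 this comparison rests on libraries that also chose it. All 4 pairs were lower for 1 of the 10 genes, Lef1, beside 14.9% of all genes, and higher for 4 of them, Lgr5, Axin2, Lrp6 and Tcf7l2, beside 15.6%. The fall with hairpin 2 passed whichever of the 12 libraries was left out (edgeR adjusted p = 0.00939 to 0.0395); it was lost without the replicate number (1), with only the hairpin 2 and control libraries in the fit (0.0823), and within replicates 1 and 2 (0.105) or 3 and 4 (0.124) alone, where the fold change was -0.57 and -0.60. The difference between the hairpins passed in 4 of 12 such fits and was lost without control replicate 1, without any one library of hairpin 1, or without replicate 1, 2 or 4 of hairpin 2 (edgeR adjusted p = 0.0503 to 0.165).

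**Figure D3:**
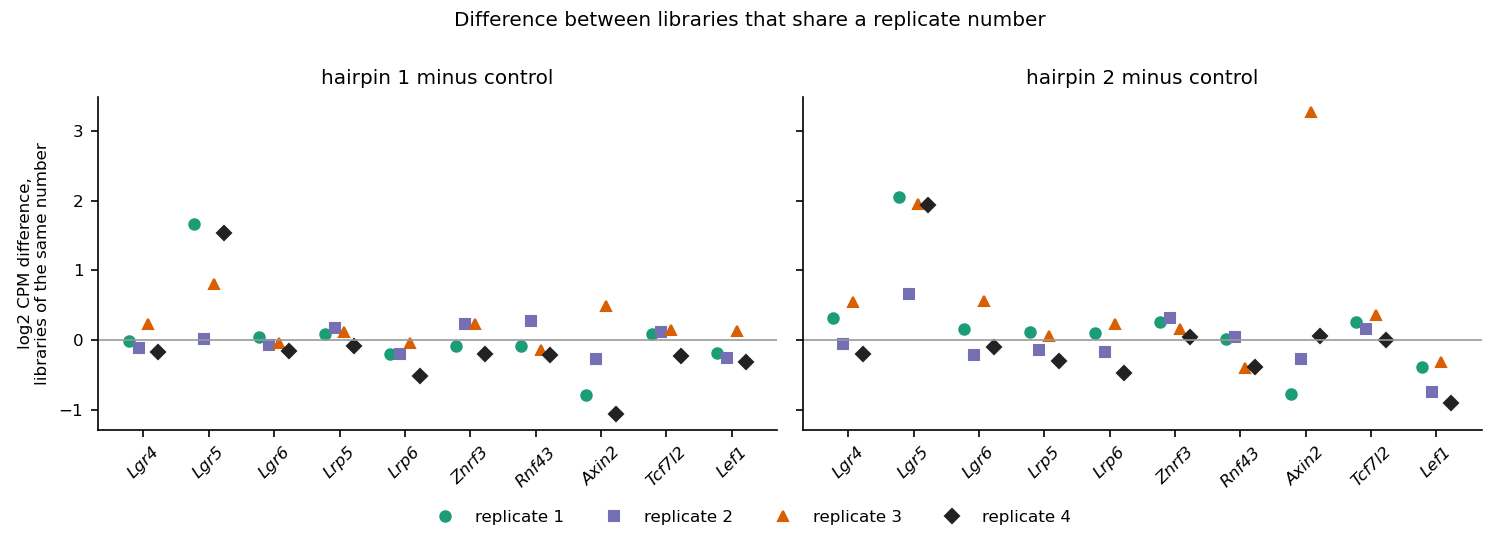
log2 CPM difference (vertical axis) between libraries of the same replicate number, hairpin 1 minus control on the left and hairpin 2 minus control on the right, 1 point per number and gene. Lef1 is below 0 in all 4 pairs of hairpin 2 (-0.90 to -0.32), Lgr5 is above 0 in all 8 pairs, and the Axin2 point of replicate 3 with hairpin 2 stands apart at 3.28.

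Lef1 shares 1208 bases of exon with Gm43352 on the opposite strand. Of its stretches of 50 bases, 13.7% also occur on either strand of transcripts of other genes. That search includes the overlap with Gm43352, so these values are not independent. No counted gene has the symbol Gm43352. The level of Lef1 is less certain than that of Lgr4, Lgr6, Rnf43 or Tcf7l2, which share 0% and overlap no exon of another gene. Lymphocytes also express Lef1: the 11 lymphocyte markers summed to 0.297 to 9.60 CPM with hairpin 1, 0.395 to 7.17 CPM with hairpin 2 and 0.215 to 17.8 CPM in the control, with 0 called by edgeR and 0 at an unadjusted p under 0.05 in any contrast. By replicate number their sum was 5.50, 7.17, 0.395 and 1.02 CPM with hairpin 2, against 17.8, 8.97, 0.215 and 0.726 CPM in the control. With hairpin 2, 2 of the 10 tested markers had a positive sign, beside 8655 of the 17025 genes tested, and the median log2 fold change of these markers was -0.87. Their part in the Lef1 level was not tested.

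TCF and LEF proteins bind DNA at short motifs, and promoters of these genes are shown because Lef1 and Tcf7l2 encode such proteins and Lef1 was the member that changed. RefSeq promoter windows (GRCm38.p6; 300 bases, 250 before to 50 after a start) were held for 6 of the 10 genes, Lgr4, Lgr6, Axin2, Rnf43, Tcf7l2 and Lef1, in 11 windows. The motif CTTTGNN, in which each N is A or T, was searched on both strands, and 2 of the 11 windows held one, against 16.9% of 32851 windows in the table. One is at an internal start of Lef1, where TACAAAG reads as the motif on the minus strand, beginning 147 bases before the start, and one at an internal start of Tcf7l2, as CTTTGTT beginning 14 bases before it; the window at the first start of Lef1 held none. Capitals mark the match.
Lef1 first start, chr3:131110047-131110346, plus strand: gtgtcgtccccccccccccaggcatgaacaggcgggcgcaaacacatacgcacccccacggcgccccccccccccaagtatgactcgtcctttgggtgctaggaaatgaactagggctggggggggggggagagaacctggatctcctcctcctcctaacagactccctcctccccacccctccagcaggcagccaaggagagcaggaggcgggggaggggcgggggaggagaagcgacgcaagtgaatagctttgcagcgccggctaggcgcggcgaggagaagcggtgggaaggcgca
Lef1 internal start, chr3:131156044-131156343, plus strand: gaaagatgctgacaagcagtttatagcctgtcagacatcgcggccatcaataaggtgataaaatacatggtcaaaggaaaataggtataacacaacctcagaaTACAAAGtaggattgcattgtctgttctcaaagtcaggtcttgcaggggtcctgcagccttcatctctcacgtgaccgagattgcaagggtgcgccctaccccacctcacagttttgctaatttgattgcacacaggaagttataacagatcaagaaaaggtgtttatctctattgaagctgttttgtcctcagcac
Tcf7l2 internal start, chr19:55895071-55895370, plus strand: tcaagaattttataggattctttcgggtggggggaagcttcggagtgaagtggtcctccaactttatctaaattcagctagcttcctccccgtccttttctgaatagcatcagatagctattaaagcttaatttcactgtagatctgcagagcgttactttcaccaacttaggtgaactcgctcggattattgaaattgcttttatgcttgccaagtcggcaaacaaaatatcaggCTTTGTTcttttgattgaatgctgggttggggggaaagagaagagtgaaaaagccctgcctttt
A match of these letters is a description and not a shown binding site, and counts per gene do not say which start was used.

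The level of the genes was ordered per length, as CPM per kilobase of merged exon over all 12 libraries. Lrp5 was highest at 40.5 ± 8.22 (SD, n = 12), followed by Lgr4 at 19.1 ± 2.63, Lrp6 at 16.9 ± 4.50 and Lgr6 at 14.8 ± 6.20. Rnf43 stood at 7.19 ± 1.95, Tcf7l2 at 5.28 ± 1.19 and Lef1 at 4.02 ± 2.09 CPM per kilobase. Lgr5 at 1.90 ± 1.26, Znrf3 at 1.62 ± 0.29 and Axin2 at 0.38 ± 0.38 were the lowest. Lrp5 was above Lgr4 in 12 of 12 libraries and Znrf3 above Axin2 in 12 of 12. Neighbours closer than the larger of their SDs were Lgr4 and Lrp6 (Lgr4 higher in 10 of 12 libraries), Lrp6 and Lgr6 (9 of 12), Rnf43 and Tcf7l2 (11 of 12), Tcf7l2 and Lef1 (9 of 12), and Lgr5 and Znrf3, where Lgr5 was the higher in 4 of 12. The place of Lgr5 depends on the group: it averaged 1.84 CPM per kilobase with hairpin 1, 2.93 with hairpin 2 and 0.93 in the control, where Znrf3 was at 1.57, 1.75 and 1.53. Every control library had Lgr5 below Znrf3, and the libraries with Lgr5 above were replicates 3 and 4 of both hairpins.

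Nearly all of these genes differed by replicate number. Tested over the 4 numbers, 9 of the 10 genes differed, as did 76.3% of all genes, and Lgr4 was the exception (edgeR adjusted p = 0.0589). Lef1 averaged 61.3 CPM in the 3 libraries of replicate 4 and 14.3 to 34.8 CPM in single libraries of the other numbers (edgeR adjusted p = 3.82e-06). Lgr6 averaged 169.7 CPM in replicate 4, where its libraries ran from 161 to 181 CPM, and lay at 66.3 to 100.1 CPM elsewhere (edgeR adjusted p = 3.59e-05). Tcf7l2 ran from 54.8 to 64.3 CPM in replicate 4 and from 32.9 to 48.7 CPM elsewhere, and Lrp6 from 269 to 385 CPM against 157 to 245 CPM. Rnf43 was highest in replicate 3, with a mean of 65.5 CPM (edgeR adjusted p = 0.000215). Lgr5 averaged 10.2, 14.5, 25.3 and 28.0 CPM over the libraries of numbers 1 to 4 (edgeR adjusted p = 0.00393). Fibroblast markers were also highest in replicate 4, where the 10 of them summed to 4768 CPM with hairpin 1, 8500 CPM with hairpin 2 and 3887 CPM in the control. Pericyte markers were highest there too in every group (374, 416 and 350.1 CPM in the same order), and luminal markers were lowest (3006, 2913 and 3223 CPM). The part of these cell types in the levels of Lef1, Lgr6, Tcf7l2 and Lrp6 there was not tested.

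Around the set, 102 further genes of the pathway were listed by role, of which 91 were tested. With hairpin 2, 6 rose and 2 fell, or 8.79% of those tested beside 5.76% of all genes, and the median log2 fold change was 0.11 beside 0.004 for all genes. Over both hairpins 1 rose and 1 fell, or 2.2% beside 1.79% of all genes, and between the hairpins 1 rose and 1 fell, or 2.2% beside 3.44%. With hairpin 1 edgeR called 0, beside 0.728% of all genes. There 18 of the 91 had an unadjusted edgeR p under 0.05, as did 2176 of the 17025 genes tested. DESeq2 with the replicate number called 4 with hairpin 1, beside 596 of all genes. Without the replicate number 0 passed in each of these comparisons.

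At the receptor, 2 Frizzled genes fell and a receptor of another family rose with hairpin 2. Fzd5, a WNT receptor, fell by 0.50 on the log2 scale with hairpin 2 (SE 0.07; edgeR adjusted p = 0.00371), with means of 38.9 ± 6.66 CPM in hairpin 2 and 55.5 ± 13.4 CPM in control libraries (SD, n = 4 each), and it was also lower than with hairpin 1 (-0.45, SE 0.07; edgeR adjusted p = 0.00773). Fzd6 fell by 0.27 with hairpin 2 (SE 0.07; edgeR adjusted p = 0.0433), and was at -0.26 with hairpin 1 (SE 0.07; edgeR adjusted p = 0.126). Ror2, a receptor for WNT5A outside the beta-catenin branch, rose by 1.29 with hairpin 2 (SE 0.26; edgeR adjusted p = 0.0218), with 5.48 ± 5.26 CPM in hairpin 2 and 2.65 ± 2.84 CPM in control libraries. In all, 1 of 13 tested receptor genes rose and 2 fell with hairpin 2, where 2.83% of all genes rose and 2.93% fell.

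Ligands did not pass. Of 19 WNT genes 13 were tested and edgeR called 0 in any contrast. With hairpin 2, 5 had an unadjusted edgeR p under 0.05, as did 3841 of the 17025 genes tested. A positive sign with hairpin 2 was seen for 12 of 13, beside 8655 of the 17025, and the median of the 13 was 0.46. The exception, Wnt7a, had the largest change of the list, at -2.575, and was lower in 4 of 4 pairs. It did not pass and was low, at 0.349 CPM in the control and 0.064 CPM with hairpin 2. The sign count was not tested, and several ligands lay near the floor, as Wnt2 at 0.11 CPM and Wnt6 and Wnt10b at 0.32 CPM in the control. The most abundant were Wnt5b, at 148 ± 17.2 CPM with hairpin 1, 147 ± 32.4 CPM with hairpin 2 and 143 ± 31.2 CPM in the control, and Wnt7b, at 50.9 ± 14.4, 50.4 ± 9.88 and 50.2 ± 17.1 CPM in the same groups. The 4 R-spondins, the ligands of the LGR receptors, were tested and edgeR called 0, with 0 at an unadjusted p under 0.05 for either hairpin against the control. Rspo1, the highest of them, was at 3.80 ± 2.09 CPM with hairpin 1, 3.40 ± 0.69 CPM with hairpin 2 and 2.46 ± 1.25 CPM in the control, and Rspo3 at 2.73 ± 2.11, 1.68 ± 1.18 and 2.31 ± 1.79 CPM. The WNT carrier Wls and the acyltransferase Porcn did not pass either, with Wls at 202 ± 61.3, 206 ± 55.8 and 209 ± 42.6 CPM and Porcn at 10.6 ± 2.21, 13.8 ± 0.89 and 11.1 ± 1.90 CPM in hairpin 1, hairpin 2 and control.

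Among secreted inhibitors 2 of 14 rose with hairpin 2 and 0 fell, where 2.83% of all genes rose; a count of 2 does not set the list apart. Dkk3, a member of the Dickkopf family, rose by 1.09 (SE 0.17; edgeR adjusted p = 0.00830) with hairpin 2, averaging 46.7 ± 18.2 CPM against 22.5 ± 9.71 CPM in the control, and by 0.88 (SE 0.16; edgeR adjusted p = 0.0248) over both hairpins. Sostdc1, a secreted antagonist that binds LRP5 and LRP6, rose by 1.23 with hairpin 2 (SE 0.27; edgeR adjusted p = 0.0289), with 16.2 ± 7.63 CPM against 6.83 ± 3.37 CPM in the control.

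Inside the cell 0 of 17 destruction complex and dishevelled genes passed edgeR's test in any contrast, and their fold changes with hairpin 2 lay between -0.10 and 0.30. With hairpin 2, 3 of the 17 had an unadjusted edgeR p under 0.05, as did 3841 of the 17025 genes tested. Ctnnb1, which encodes beta-catenin, was at 1016 ± 33.6 CPM with hairpin 1, 911 ± 61.1 CPM with hairpin 2 and 945 ± 105 CPM in the control, and its kinase Csnk1a1 at 429 ± 37.7, 450.3 ± 46.1 and 457 ± 55.2 CPM. Of 13 nuclear partners 1 rose with hairpin 2, beside 2.83% of all genes: Tcf7l1, the TCF protein best known as a repressor, by 0.59 (SE 0.10; edgeR adjusted p = 0.00905), with 29.0 ± 3.96 CPM in hairpin 2, 17.5 ± 2.72 CPM in hairpin 1 and 19.4 ± 4.30 CPM in control libraries. It was higher than with hairpin 1 by 0.74 (SE 0.10; edgeR adjusted p = 0.00442). Lef1 and Tcf7l1, both of the TCF and LEF family, thus passed in opposite directions with hairpin 2.

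Of 19 tested target genes outside the set, 2 rose with hairpin 2 and 0 fell, beside 2.83% of all genes that rose; this count too does not set the list apart. Nkd1, a feedback inhibitor of dishevelled, rose by 1.14 (SE 0.26; edgeR adjusted p = 0.0342) at 3.87 ± 2.12 CPM against 1.71 ± 0.82 CPM in the control. Sox9, a transcription factor of progenitor cells, rose by 0.39 (SE 0.08; edgeR adjusted p = 0.0178) at 249.9 ± 56.9 CPM against 191 ± 47.2 CPM. The calls of Fzd5, Dkk3 and Tcf7l1 with hairpin 2 passed whichever library was left out, while the Dkk3 rise over both hairpins was lost without control replicate 1, 3 or 4 or hairpin 1 replicate 1 or 4 (edgeR adjusted p up to 0.103). Within replicates 1 and 2 alone, or 3 and 4 alone, 0 of the 8 passed (0.0504 for Dkk3 to 0.440 for Fzd6). Sox9 was lost without control replicate 1 (edgeR adjusted p = 0.0668) or 3 (0.0608), and Ror2 without control replicate 1, 3 or 4 or hairpin 2 replicate 1 (0.0532 to 0.0665). Sostdc1 was lost without control replicate 3 or 4 or hairpin 2 replicate 1, 3 or 4 (0.0583 to 0.0971). Fzd6 passed without replicate 3 of the control or of hairpin 2 and was lost without any other library (up to 0.133), and Nkd1 passed without hairpin 1 replicate 3 or 4 or hairpin 2 replicate 3 and was lost without any other (up to 0.124).

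**Figure D4:**
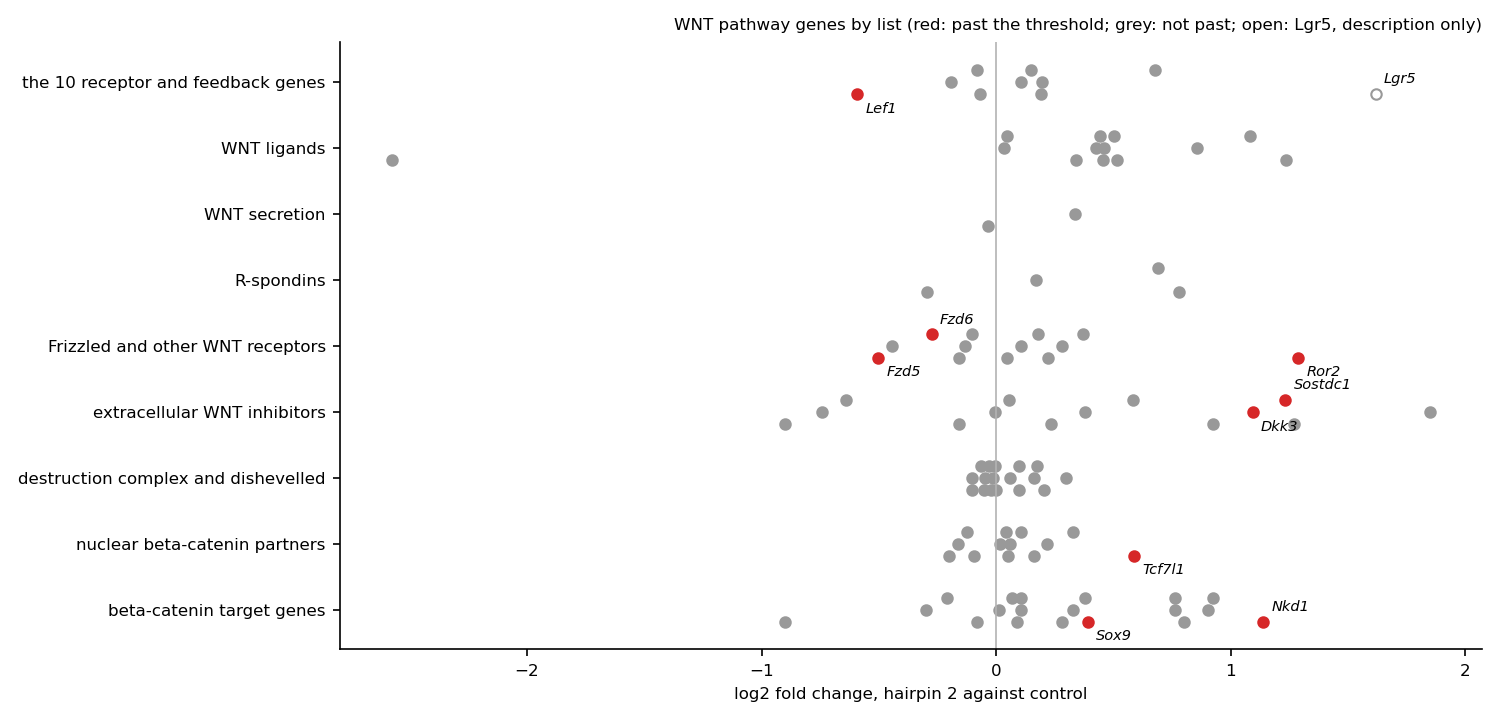
log2 fold change (horizontal axis) of each tested pathway gene with hairpin 2 against control, 1 row per list. The 10 described genes are on top, labelled receptor and feedback genes although Tcf7l2 and Lef1 encode nuclear proteins. Genes past the threshold are red and named. The red points are Lef1, Fzd5 and Fzd6 below 0, and Ror2, Dkk3, Sostdc1, Tcf7l1, Sox9 and Nkd1 above 0.

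Some cell type markers also passed with hairpin 2, in lists chosen with earlier results of these data known. With hairpin 1 edgeR called 0 of 13 basal, 0 of 10 fibroblast and 0 of 7 pericyte markers. There 6, 2 and 3 of them had an unadjusted edgeR p under 0.05, as did 2176 of the 17025 genes tested. Of 13 basal and myoepithelial markers 6 rose with hairpin 2, where 2.83% of all genes rose, among them Cnn1, a smooth muscle calponin (2.49, SE 0.33; edgeR adjusted p = 0.00394), and Cdh3, the basal P-cadherin (1.11, SE 0.16; edgeR adjusted p = 0.00520). Their summed level was 1845 to 4269 CPM with hairpin 1, 3266 to 4379 CPM with hairpin 2 and 1567 to 4497 CPM in the control. Among fibroblast markers 2 of 10 rose with hairpin 2, beside the same 2.83%, Dcn and Col14a1 (sums of 268 to 4768 CPM with hairpin 1, 520.1 to 8500 CPM with hairpin 2 and 231 to 3887 CPM in the control), and among 7 tested pericyte markers 2, Pdgfrb and Cspg4 (173 to 374 CPM with hairpin 1, 179 to 416 CPM with hairpin 2 and 166 to 350.1 CPM in the control). Luminal markers summed to 3006 to 5077 CPM, 2913 to 4881 CPM and 3223 to 5384 CPM in the same groups. With hairpin 2, 1 of 10, Epcam, was lower, beside 2.93% of all genes. The luminal list was mixed, with 4 of 10 positive, a median log2 fold change of -0.025 and values from -0.352 to 1.020. The basal, fibroblast and pericyte lists leaned up with hairpin 2 but were not uniform. Positive were 11 of 13 basal markers (median 0.704, from -0.358 to 2.488) and 8 of 10 fibroblast markers (0.556, from -0.368 to 1.376). So were 5 of 7 pericyte markers (0.591, from -0.138 to 1.146), beside 8655 of the 17025 genes tested. Cnn1, Cdh3, Dcn and Pdgfrb passed with hairpin 2 whichever library was left out. Col14a1 was lost without replicate 1, 2 or 4 of the control or replicate 2 or 4 of hairpin 2 (edgeR adjusted p up to 0.0942), and Epcam without control replicate 3 or hairpin 2 replicate 4 (up to 0.0504). Cspg4 passed without replicate 2 of the control or of hairpin 2 and was lost without any other library (up to 0.129). Endothelial markers summed to 3.40 to 7.31 CPM with hairpin 1, 3.89 to 11.98 CPM with hairpin 2 and 3.58 to 9.53 CPM in the control, and macrophage markers to at most 114 CPM in any library, with 0 called by edgeR, 0 at an unadjusted p under 0.05 against the control, and Cldn5, Emcn, Cdh5, Adgre1, Tyrobp, C1qa, C1qb and C1qc at 0 in 1 or more libraries. So were the pericyte marker Higd1b and lymphocyte markers including Cd3d, Cd3e, Cd3g, Cd4, Cd8a, Ms4a1, Nkg7 and Ptprc. No listed marker was at 0 in all libraries. The part of basal, fibroblast and pericyte cells in the levels of Lgr5, Lef1 and the pathway genes above was not tested.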

How the data were processed

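The authors deposited unnormalised counts of reads for each gene and library, with NCBI Gene numbers and symbols. Named without their roles, per the submitters' processing notes, are Trimmomatic 0.39, FastQC 0.74, the build mm10 and DESeq2 1.34.0; per the labels' protocols, an oligo-dT selection preceded a NEBNext Ultra kit. How reads were aligned, annotated and assigned by strand is not stated in any source used here, so reads of overlapping genes may have been assigned in ways the counts do not show. Coordinates and exon lengths come from GENCODE M21 on GRCm38. The RefSeq table of GRCm38.p6 holds 25233 of the 25861 gene numbers, and 23596 had the same symbol, the 10 described genes included; 1 row has no symbol and was kept under its number.

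Genes were filtered with edgeR's filterByExpr (edgeR 4.0.16, R 4.3.3), which kept 17025 and left out 8836; the kept genes hold 99.97% or more of every library. Scaling was by TMM. The quasi-likelihood test (glmQLFit, glmQLFTest) was run over all 12 libraries with group and replicate number as terms; p-values were adjusted by Benjamini-Hochberg across the 17025 genes, with a threshold of 0.05; a script with these settings was tested on simulated data. Log2 CPM used a prior count of 2. Fold changes are the hairpin over the control, or hairpin 2 over hairpin 1.

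The replicate numbers pair the libraries. Same-numbered libraries deviated together, with correlations of 0.855 to 0.916, while differently numbered ones gave -0.807 to 0.727; each of the 12 libraries correlated best with one of its own number. The pairing rests on the titles' numbers and on this check. The biological coefficient of variation was 0.141 with the replicate number and 0.648 without. No 2 libraries of a group were near-duplicates (chi-square per degree of freedom 51.9 to 594).

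The members and lists were chosen with earlier results of these data known, and Lgr5 against the control was left out of the tests for that reason. Named genes were all 10 members and Cldn7; from each pathway list up to 4 genes past the threshold, or else the 2 of highest mean CPM; from each marker list up to 2 past the threshold and those at 0, of which 1 is not reported here; and the 5 genes nearest to Lgr5. Other settings tried were no replicate number, other scalings and filters, DESeq2 1.42.0, fits of the compared groups alone, pairs of replicate numbers alone, and leaving out each library.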

Additional observations from a re-analysis of the deposited data

Results flagged for a closer look

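Lgr5 in the control had 1 library far from the other 3. Control replicate 1 was at 3.63 CPM and the others at 10.8 to 12.1 CPM, and the gap made up 0.906 of the group's range on the log2 scale, above the limit of Dixon's test for 4 samples. Of the 30 sets of 4 libraries looked at, 10 genes in 3 groups, this was 1, where chance gives about 1 in 20. The control values are also among those that chose Lgr5, so the flag is a description and nothing is read from it. Without that library the log2 fold change of Lgr5 was 1.15 over both hairpins, against 1.30 with it, and this change was not tested.

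Lef1 differed between the hairpins by -0.433 on the log2 scale, hairpin 2 minus hairpin 1 (SE 0.10; edgeR adjusted p = 0.0419), lower in 4 of 4 pairs. Cldn7 was at 28.4 CPM with hairpin 2 and 33.6 CPM with hairpin 1, a difference of -0.23 (SE 0.08) that did not pass (edgeR adjusted p = 0.149). The difference in Lef1 passed in 4 of 12 fits that left out 1 library.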

How the results depend on the processing

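The replicate block carries the calls. Without it (no replicate block) 0 of the described genes and 0 pathway genes passed in any comparison. Of all genes 1 passed in each comparison, which against the control was Cldn7. DESeq2 without the block called 0 of the described genes and 28 (both hairpins), 19 (hairpin 1), 44 (hairpin 2) and 41 (hairpin 2 against hairpin 1) of all genes. DESeq2 with the block called 1150, 596, 1851 and 1405 of all genes in the same order, against 304, 124, 981 and 585 in edgeR, and 8, 4, 15 and 13 pathway genes, against 2, 0, 8 and 2. Over both hairpins Lef1 was called, as 1 gene, by DESeq2 with the block, without the filter, and without control replicate 3 or hairpin 2 replicate 3. Library totals alone called 1 pathway gene over both hairpins and 0 described genes between the hairpins; no filter called 4 pathway genes over both hairpins. Replicates 1 and 2 alone called 25, 9, 82 and 84 of all genes, replicates 3 and 4 alone 5, 1, 327 and 42, and both called 0 described genes with hairpin 2 or between the hairpins. Both hairpins as 1 group called 48 genes. With only the groups compared, 390 genes passed with hairpin 1 and 97 with hairpin 2, and 0 described genes with hairpin 2.

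Leaving out 1 library gave 39 (control replicate 4) to 554 (hairpin 2 replicate 3) genes over both hairpins, 2 (hairpin 1 replicate 1) to 344 (hairpin 2 replicate 3) with hairpin 1, 342 (control replicate 3) to 1076 with hairpin 2, and 165 (hairpin 1 replicate 3) to 672 between the hairpins. The count of described genes ranged over 0 to 1 for both hairpins, 1 to 2 with hairpin 2 (Tcf7l2 added without control replicate 4) and 0 to 2 between the hairpins (Lgr5 added without control replicate 2).

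The values that changed sign by more than their SE all belonged to genes that did not pass. Leaving out 1 library, Axin2 ranged from -0.54 to 0.31 over both hairpins and from -0.14 to 1.08 with hairpin 2, Lgr4 from -0.037 to 0.15 over both, Lgr6 from -0.05 to 0.21 with hairpin 2 and Lrp6 from -0.17 to 0.034 with hairpin 2. In replicates 1 and 2 alone Axin2 was -0.57 over both and -0.56 with hairpin 2, Lgr6 -0.029 with hairpin 2 and -0.015 for hairpin 2 against hairpin 1, and Rnf43 0.063 over both, 0.10 with hairpin 1 and 0.024 with hairpin 2. The causes were not tested. Axin2 had 20 to 420 counts per library.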
